A study of Mus musculus with 6 samples.

Results

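The 9 interferon-stimulated genes *Isg15*, *Usp18*, *Ifit1*, *Ifit3*, *Oasl2*, *Rsad2*, *Bst2*, *Irf7* and *Ifi27* were followed across the cell types of the mouse main olfactory epithelium, as measured by single-cell RNA-seq. They were taken by symbol from the 24564 genes in the files, and all 9 were found. The 2 swap libraries carry Cbx*/* together with a Cre that the study describes as specific to the neuronal lineage. In these alleles recombination removes *Cbx1*, the gene of the heterochromatin protein HP1 beta, and puts *Cbx5*, the gene of HP1 alpha, under the *Cbx1* promoter. Of the 2 control libraries, replicate 1 is WT with the Cre and replicate 2 is Cbx*/* without it, so that the controls do not share a genotype. The tetOP2 library (gg8-tTA; tetOP2iresGFP) and the gg8tTA library (gg8-tTA) are 1 library each and have no replicate. In the tetOP2 mice the tTA drives expression of the odorant receptor gene *Olfr17*. The labels give no age or sex. According to the study many swap mice die early, and whether the sampled mice had passed that age is not given in the sources used here.

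Interferons are secreted cytokines that bind receptors on the same or neighbouring cells. Their signal passes from these receptors to transcription factors, which bind a sequence element in the promoters of interferon-stimulated genes. The products restrict viruses and tune the response itself, and in barrier tissues such as the olfactory epithelium, which is open to inhaled air, a low tonic response is known. Of the 9 genes, *Isg15* encodes a ubiquitin-like modifier and *Usp18* the protease that removes it and dampens the receptor. *Ifit1* and *Ifit3* encode RNA-binding partners, *Oasl2* a relative of the RNA-sensing oligoadenylate synthetases, *Rsad2* the enzyme viperin, and *Bst2* tetherin, which holds budding viruses at the cell surface. *Irf7* encodes a transcription factor that amplifies the response, and *Ifi27* a small hydrophobic membrane protein.

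Promoter sequence was read for the members from the RefSeq table of GRCm38.p6, the assembly also called mm10, and 7 of the 9 were matched. The element was searched as GAAANNGAAA on both strands, with overlapping matches allowed, in windows from 250 bases before to 50 bases after each start. It was found in 5 of the 7 windows and in 3.44% of all 32851 windows in the table. The 250 bases before the start are printed for *Isg15* (chr4:156200819-156201068, minus strand), *Bst2* (chr8:71537473-71537722, minus strand), *Ifit1* (chr19:34640639-34640888, plus strand) and *Ifit3* (chr19:34583279-34583528, plus strand), with matches in capitals. They are shown because *Isg15* and *Bst2* behaved differently between swap and control libraries. *Ifit1* and *Ifit3* were added because they lie in the same chromosome region but had very different levels in neurons.
Isg15: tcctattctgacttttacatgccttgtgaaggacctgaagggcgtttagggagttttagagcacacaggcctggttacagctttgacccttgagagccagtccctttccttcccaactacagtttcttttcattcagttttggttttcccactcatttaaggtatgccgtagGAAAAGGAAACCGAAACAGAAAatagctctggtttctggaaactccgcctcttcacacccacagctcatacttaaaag
Bst2: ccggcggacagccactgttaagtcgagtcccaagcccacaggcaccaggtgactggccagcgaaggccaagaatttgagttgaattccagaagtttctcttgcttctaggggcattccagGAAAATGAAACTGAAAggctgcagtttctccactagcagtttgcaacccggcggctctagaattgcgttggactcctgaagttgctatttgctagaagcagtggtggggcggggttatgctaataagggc
Ifit1: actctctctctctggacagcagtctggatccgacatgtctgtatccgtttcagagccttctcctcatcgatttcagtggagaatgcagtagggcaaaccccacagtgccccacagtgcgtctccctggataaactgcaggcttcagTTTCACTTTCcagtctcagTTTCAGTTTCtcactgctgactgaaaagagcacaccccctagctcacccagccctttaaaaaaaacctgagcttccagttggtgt
Ifit3: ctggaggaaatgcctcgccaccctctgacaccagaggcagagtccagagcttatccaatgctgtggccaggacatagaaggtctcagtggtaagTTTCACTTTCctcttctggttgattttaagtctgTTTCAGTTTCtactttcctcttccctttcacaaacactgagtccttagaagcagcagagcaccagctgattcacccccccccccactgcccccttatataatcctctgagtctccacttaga
*Isg15* holds 3 overlapping matches in 1 run and *Bst2* holds 2, all on the strand of the gene. *Ifit1* and *Ifit3* each hold 2 separate matches on the other strand. *Rsad2* (chr12:26456453-26456702) holds 1, and no match lies in the windows of *Irf7* and *Oasl2*. A match is a run of letters, and binding was not measured here.

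The libraries held 2563 to 7703 barcodes and 32005196 to 63277934 UMIs. UMIs, or unique molecular identifiers, each stand for 1 captured transcript. Cells were assigned to types by gates of 5 to 8 marker genes each, with the 9 genes in none of the gates. The labels call the cells OSN, or olfactory sensory neuron, but mature OSNs made up 15.6% to 29.5% of the kept cells, and 17 gates from basal cells to blood cells were filled. Pairs among the swap and control libraries shared 7 to 20 barcodes. The tetOP2 and gg8tTA libraries shared 13, and pairs across these sets shared 0 or 1. Summed over 5 sustentacular markers, mature OSNs had 356 CPM in tetOP2 and 358 in gg8tTA, 63.7 to 80.6 in swap and 73.75 to 84.1 in control. Levels in tetOP2 and gg8tTA can therefore differ from the others by set as well as by mouse line, and these cannot be told apart. *Xist* was present at 1250 to 1422 CPM in mature OSNs of swap replicate 1, tetOP2 and gg8tTA and at 0.06 or less in the other libraries, so the swap libraries differed from each other in this gene. Both controls were like swap replicate 2, so swap and control are not balanced for it. Its part in the differences between swap and control was not tested. A level in CPM is the count of a gene divided by all UMIs of the gated cells of a library and multiplied by 1000000, and only sums of at least 20 cells were compared unless stated. A level of a gene compares libraries and cell types, not genes of different length.

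Loss of *Cbx1* was first checked in each gate. In mature OSNs *Cbx1* stood at 1.47 and 3.31 CPM in swap replicates 1 and 2, against 81.6 and 154 CPM in control replicates 1 and 2, 37.0 in tetOP2 and 34.2 in gg8tTA. Sustentacular cells, the glia-like support cells of the epithelium, had 0.700 and 1.26 CPM of *Cbx1* in swap and 65.8 and 36.7 CPM in control. *Cbx1* was also low in swap immature OSNs, neuronal precursors, horizontal basal cells and microvillar cells, at 0.509 to 6.83 CPM against 55.2 to 277 CPM in the controls. It was kept in macrophages (21.5 and 25.6 against 32.0 and 41.3 CPM), ensheathing glia (41.9 and 51.6 against 85.0 and 43.4), fibroblasts (41.7 and 42.6 against 54.5 and 54.1) and B lineage cells (90.8 and 104 against 170.5 and 139). In macrophages, fibroblasts and B lineage cells both swap levels were still below both controls. *Cbx5* stood in mature OSNs at 77.3 and 89.35 CPM in swap and 20.4 and 31.6 CPM in control. Gates with and without the loss of *Cbx1* transcripts can therefore be set side by side. HP1 proteins were not measured in these libraries.

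The members did not share 1 pattern over cell types. In mature OSNs the median over the 6 libraries was 1.16 CPM for *Isg15*, 0.513 for *Usp18*, 0.297 for *Ifit3*, 0.342 for *Oasl2* and 1.245 for *Irf7*. *Rsad2* and *Bst2* were at medians of 3.02 and 4.49 CPM. *Ifit1* and *Ifi27* stood at 67.6 and 59.4 CPM in the same cells. Ensheathing glia, which wrap the axons of OSNs, had the highest median of *Ifi27* among gates with at least 3 such sums, with 439 to 687 CPM per library, and *Isg15* between 154 and 346 CPM. Macrophages had the highest median of *Bst2* among the same gates, with 206 to 728 CPM over 5 libraries. The few plasmacytoid dendritic cells, 1 to 13 per library, had 2124 to 4571 CPM of *Bst2*, which is also a surface marker of these cells. Erythroid cells had 851 to 4471 CPM of *Isg15* and 2056 to 3798 CPM of *Rsad2* in 4 libraries of 33 to 157 cells, with a median depth of 1666 to 2340 UMIs per cell.

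**Figure D1:**
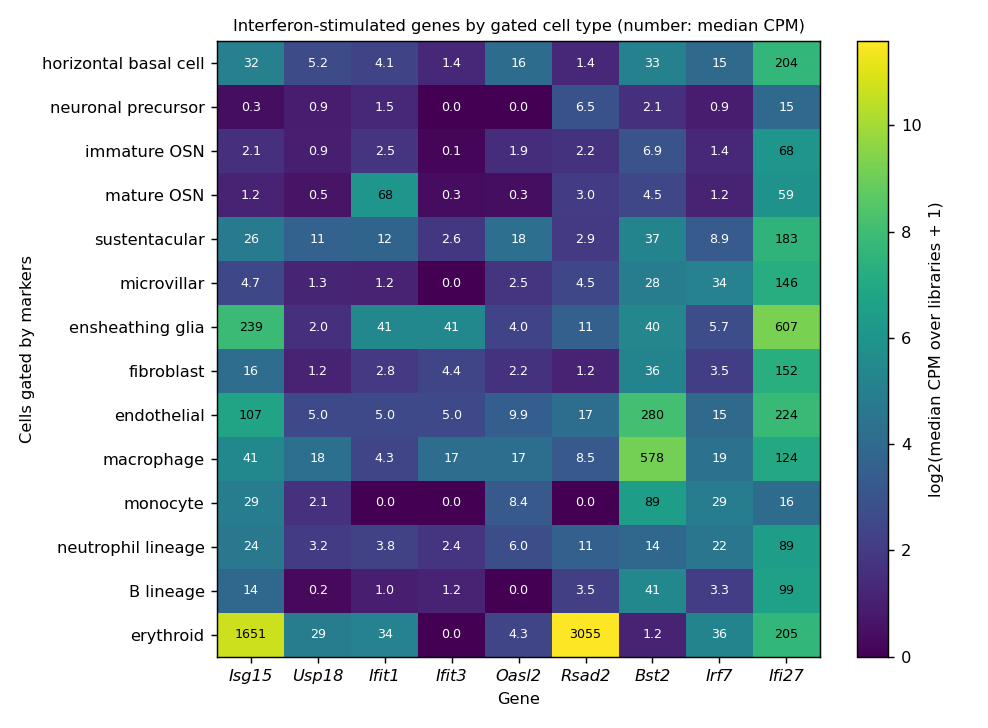
Median CPM of each of the 9 genes (columns) in each gate with sums in at least 3 libraries (rows), with the colour on a log2(CPM + 1) scale and the median printed in each cell. *Ifit1* is at 67.6 CPM in mature OSNs and at 2.48 CPM in immature OSNs, and *Ifi27* is at 14.6 CPM or more in every row.

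Each gate was then tested against the mature OSNs of the same libraries with edgeR, with the library as a block, and calls needed both a Benjamini-Hochberg adjusted p under 0.05 and a change of more than 0.58 on the log2 scale. Sustentacular cells had 7 of the 9 members called higher and 1 lower, where 32.6% of all genes tested were called higher and 35.5% lower. Horizontal basal cells, the reserve stem cells, had the same counts, 7 and 1, against 30.4% and 39.2% of all genes. Fibroblasts had 7 and 1 against 30.8% and 40.2%. Macrophages had 8 called higher and 1 lower against 25.9% and 42.6%, and ensheathing glia 7 and 0 against 26% and 36%. The shares of members called higher were thus above the share of all genes in these gates. A gene with few counts in mature OSNs passes the filter on low counts only where the other gate is high. *Ifit3*, at a median of 0.297 CPM in mature OSNs, was tested in these gates but not in immature OSNs. These shares are therefore in part set by the filter, and no conclusion on the members is drawn from them.

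Endothelial, monocyte, neutrophil lineage and erythroid cells were tested in 3 or 4 libraries, and their counts are not given here. In microvillar cells, B lineage cells, neuronal precursors and immature OSNs 8 members passed the filter on low counts. Microvillar cells had 4 called higher and 1 lower against 26% and 35.7% of all genes, and B lineage cells 4 and 1 against 28.7% and 43%. Neuronal precursors had 0 called higher and 3 lower against 26.6% and 38.7%. Immature OSNs had 1 called higher, *Oasl2*, and 1 lower, *Ifit1*, against 19% and 19.1% of all genes. *Bst2* was higher in sustentacular cells than in mature OSNs by 2.49 on the log2 scale (SE 0.15, adjusted p = 2.9e-07), and *Isg15* by 4.10 (SE 0.36, adjusted p = 4.6e-06).

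*Ifit1* was called lower than in mature OSNs in each gate with counts given above except ensheathing glia. Its level in mature OSNs was 48.2 and 60.5 CPM in swap replicates 1 and 2, 74.8 and 82.4 CPM in control replicates 1 and 2, 59.5 CPM in tetOP2 and 79.7 CPM in gg8tTA. In immature OSNs it was 3.12, 7.85, 3.08, 1.43, 0.235 and 1.88 CPM in the same order, and in neuronal precursors it was between 0 and 4.55 CPM. Every mature library was above every immature one. The difference was 4.63 on the log2 scale in favour of mature OSNs (SE 0.37, edgeR adjusted p = 1.9e-05).

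Few UMIs of any one cell made up the *Ifit1* sums, since at most 2.12% of the UMIs of a mature OSN sum came from 1 cell. After thinning each cell to 3000 UMIs, so that depth is equal, 11.6% to 20.3% of mature OSNs had an *Ifit1* UMI in the 6 libraries. In immature OSNs that share was 0% to 1.79%, and in neuronal precursors, a type with almost no *Ifit1*, 0% to 6.12% of 40 to 112 cells. Without thinning the share in mature OSNs was 28.7% to 45.5%. *Ifit3*, which lies in the same region of chromosome 19 as *Ifit1*, stayed at 0 to 0.630 CPM in mature OSNs. *Isg15* was at 0.481 to 1.34 CPM in 5 of the 6 libraries, so the high *Ifit1* of mature OSNs stood beside low *Ifit3* and low *Isg15*. No annotated gene overlaps *Ifit1*, *Ifit3*, *Isg15*, *Oasl2*, *Bst2*, *Rsad2* or *Ifi27*, while *Irf7* overlaps *Phrf1* on the opposite strand and *Usp18* overlaps *Gm44148*, which is not among the genes of the files.

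Whether these genes were higher where HP1 beta was replaced by HP1 alpha was asked first in mature OSNs. *Bst2* was 10.1 and 13.9 CPM in swap replicates 1 and 2 and 4.59 and 4.38 CPM in control replicates 1 and 2, with 2.73 in tetOP2 and 2.89 in gg8tTA. Both swap libraries were above all 4 other libraries, of which tetOP2 and gg8tTA belong to another set, as given above. The mean was 11.97 ± 2.66 CPM in swap and 4.49 ± 0.149 CPM in control (SD, n = 2 each), a ratio of 2.67, and the log2 fold change was 1.38 (SE 0.34). It did not pass the test across all genes (edgeR, Benjamini-Hochberg adjusted p = 0.687), nor under any of 12 alternatives, over which the log2 fold change lay between 1.12 and 1.72 and the adjusted p between 0.104 and 1.00. An exact permutation test of 2 against 2 libraries cannot go below p = 0.333.

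No gene was called by edgeR in either direction in this comparison (0% of 12856 tested, higher or lower), and *Cbx1* itself, at -5.59 on the log2 scale (SE 0.56, adjusted p = 0.0969), missed the threshold, although it passed with DESeq2 (adjusted p = 6.2e-26). At an unadjusted p under 0.05 there were 339 genes, 1 of them a member, *Bst2*. DESeq2 called 190 genes and no member. Of the 9 members 7 passed the filter on low counts, and *Ifit3* and *Usp18* did not. A missing call for a member therefore does not show an equal level.

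The other members in mature OSNs differed less regularly. *Isg15* was 0.680 and 13.1 CPM in swap replicates 1 and 2 and 1.34 and 1.14 CPM in the controls, and *Irf7* was 1.36 and 3.86 against 1.13 and 0.720 CPM. *Oasl2* was 0.794 and 2.99 CPM against 0.424 and 0.0600 CPM, and *Rsad2* 2.72 and 6.22 against 3.18 and 5.64 CPM. *Isg15* and *Rsad2* overlapped between the groups, and *Irf7* and *Oasl2* were higher in both swap than in both control libraries. For *Irf7* tetOP2, at 2.47 CPM, lay between the swap libraries. *Usp18* was 0.340 and 2.20 against 0.424 and 0.30 CPM, and *Ifit3* did not exceed 0.630 CPM in any library. Swap replicate 2 was the highest of the 6 libraries for *Isg15*, *Irf7*, *Oasl2*, *Rsad2*, *Usp18* and *Ifit3*.

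A large part of the *Isg15* signal of swap replicate 2 came from 1 cell. That library held 166 *Isg15* UMIs in 1044 mature OSNs, 98 of them, or 59.0%, in a single cell. After thinning, 1.39% of its mature OSNs (95% exact Clopper-Pearson interval 0.764 to 2.33%) had an *Isg15* UMI against 0% to 0.595% in the other 5 libraries. In leave-one-out fits of mature OSNs the log2 fold change of *Isg15* was 3.38 without swap replicate 1 and -0.91 without swap replicate 2. The difference in *Isg15* thus rests on swap replicate 2. By position markers given with *Ifi27*, that library had 151 *Isg15* UMIs in 520 ventral and 13 in 404 dorsal mature OSNs. The 98 UMIs of the single cell must be among the 151. *Irf7*, *Oasl2*, *Bst2*, *Rsad2* and *Usp18* also had higher CPM in its ventral than in its dorsal mature OSNs. *Ifit1*, at 60.8 CPM in ventral and 58.3 CPM in dorsal cells, and *Ifit3*, at 0.592 and 0.648 CPM, were nearly equal. Control replicate 1 also had more *Isg15* in ventral than in dorsal mature OSNs, at 1.96 against 0.424 CPM. The same order held there for *Irf7*, *Oasl2*, *Rsad2* and *Usp18*, on 1 to 7 dorsal UMIs per gene, but not for *Bst2*. In control replicate 2 *Isg15*, *Irf7* and *Rsad2* were lower in ventral cells. In immature OSNs of swap replicate 2 *Isg15*, *Usp18*, *Oasl2*, *Irf7* and *Rsad2* had 19 to 22 UMIs in 270 ventral cells and 0 in 59 dorsal cells. Each of these genes had a UMI in only 12 to 15 immature OSNs of that library.

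*Ifit1* went the other way in mature OSNs. The means were 54.3 ± 8.68 CPM in swap and 78.6 ± 5.37 CPM in control (SD, n = 2 each), a ratio of 0.691, without overlap between these groups. The tetOP2 library, at 59.5 CPM, lay within the swap range. The log2 fold change was -0.56 (SE 0.22, edgeR adjusted p = 1.00). The thinned share of mature OSNs with an *Ifit1* UMI was 11.6% and 14.5% in swap and 18.6% and 20.3% in control. *Ifi27* overlapped between the groups, with 78.6 and 68.3 CPM in swap and 90.0 and 33.2 CPM in control (log2 fold change 0.20, SE 0.52, adjusted p = 1.00).

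**Figure D2:**
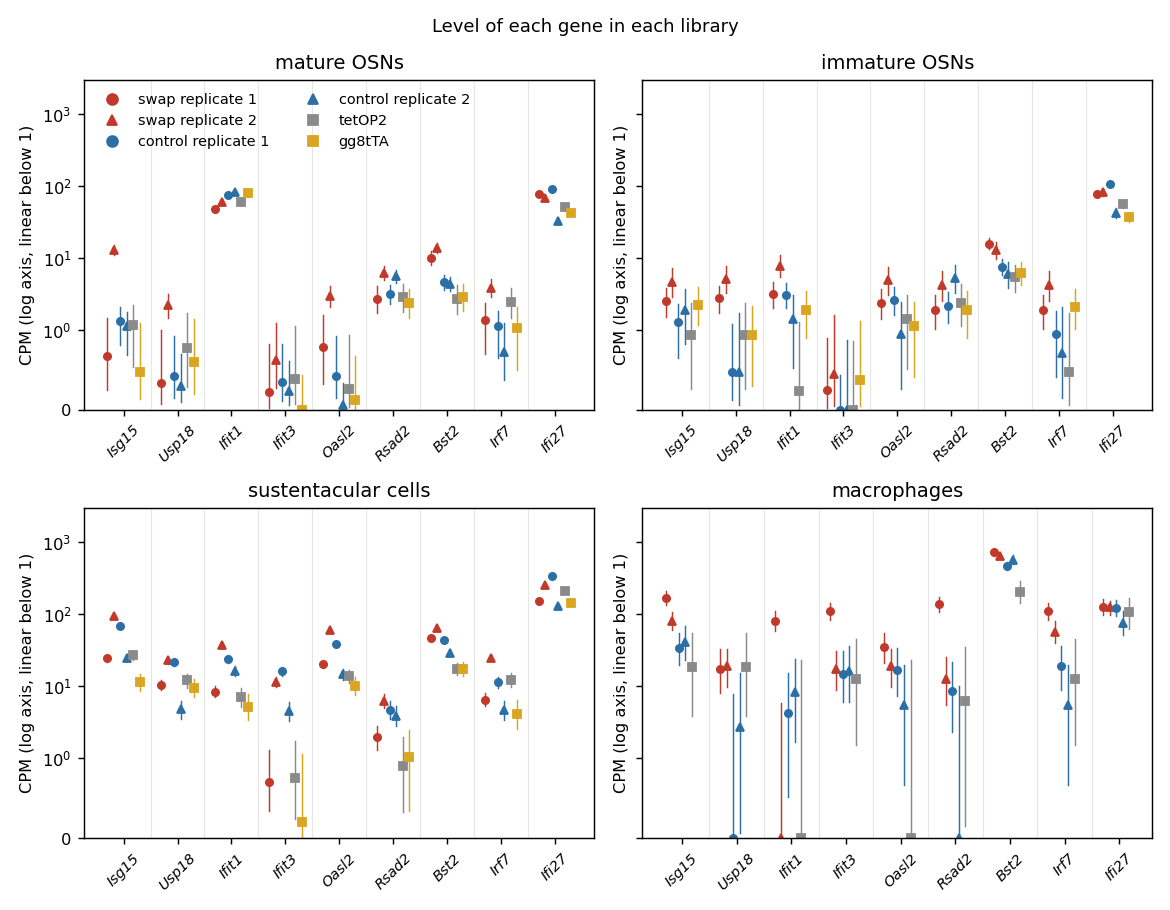
CPM of the 9 genes in each library (log axis, linear below 1) in mature OSNs, immature OSNs, sustentacular cells and macrophages, with points for libraries and vertical lines for exact Poisson 95% intervals, which cover counting error only. *Bst2* is higher in both swap than in both control libraries in all 4 panels, while in sustentacular cells swap replicate 2 and control replicate 1 are the highest for *Isg15*, *Oasl2* and *Ifi27*.

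Immature OSNs, the younger neurons with more *Gap43* than *Omp*, gave the same order for *Bst2*. It was 15.8 and 12.8 CPM in swap replicates 1 and 2, 7.57 and 5.94 CPM in control replicates 1 and 2, 5.41 in tetOP2 and 6.19 in gg8tTA. Both swap libraries were above the other 4, and the ratio of the means was 2.12 (log2 fold change 1.04, SE 0.32, edgeR adjusted p = 1.00). *Usp18* was 2.74 and 5.16 CPM in swap against 0.474 and 0.475 CPM in control and 0.940 and 0.938 CPM in tetOP2 and gg8tTA. Its log2 fold change was 2.95 (SE 0.65, adjusted p = 0.538), and it remained uncalled under each of 12 alternatives. *Irf7* was 1.87 and 4.26 against 0.947 and 0.713 CPM, and gg8tTA, at 2.06 CPM, lay between the swap libraries. The summed level of 8 neutrophil lineage markers in these cells was 119 to 170 CPM in swap, 22.5 to 31.6 CPM in control, 221 in tetOP2 and 98.5 in gg8tTA, and its part in the differences was not tested.

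*Isg15*, *Ifit1* and *Ifit3* were also higher in both swap than in both control immature OSN sums, but at low counts. The share of all genes without overlap is not given for this or any other single gate. How many members were without overlap in a gate therefore has no background beside it. *Ifit1* was 3.12 and 7.85 against 3.08 and 1.43 CPM, so that swap replicate 1 and control replicate 1 hardly differed. *Ifit3* did not exceed 0.449 CPM. *Oasl2*, *Rsad2* and *Ifi27* overlapped, *Ifi27* with 78.7 and 81.7 CPM against 106 and 42.3 CPM. Of 8 members tested none was called, where edgeR called 0% of 12016 genes higher and 0% lower. There were 266 genes at an unadjusted p under 0.05, among them 3 members, *Usp18*, *Irf7* and *Bst2*, and DESeq2 called 84 genes and no member.

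Sustentacular cells had also lost *Cbx1*. In them the members other than *Bst2* overlapped between the swap and control libraries, and the cause was not tested. *Isg15* was 24.6 and 94.4 CPM in swap replicates 1 and 2, 68.3 and 25.1 CPM in control replicates 1 and 2, 27.3 in tetOP2 and 11.5 in gg8tTA. Swap replicate 2 and control replicate 1 were the high libraries. Among the swap and control libraries the same held for *Ifit1*, with 8.47 and 37.8 against 24.0 and 16.5 CPM, for *Oasl2*, with 20.4 and 61.1 against 39.4 and 14.7 CPM, and for *Irf7*, with 6.51 and 24.7 against 11.4 and 4.68 CPM. In *Ifit3* control replicate 1 was the highest, with 0.700 and 11.4 against 16.2 and 4.48 CPM. *Usp18* was 10.6 and 23.0 against 21.7 and 4.78 CPM, and *Ifi27* was 155 and 252 against 337 and 132 CPM.

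*Bst2* alone of the 9 was higher in both swap than in both control sustentacular sums, at 47.1 and 64.9 CPM against 44.3 and 29.3 CPM, with 17.4 CPM in each of tetOP2 and gg8tTA. Swap replicate 1 and control replicate 1 were close. The log2 fold change was 0.58 (SE 0.33, edgeR adjusted p = 1.00). All 9 members passed the filter and none was called, where 0.00754% of 13254 genes were called higher and 0.00754% lower, 1 gene each, the lower one *Cbx1* (log2 fold change -5.73, adjusted p = 0.0322). Without the filter on low counts *Cbx1* missed the threshold (adjusted p = 0.121). Leaving out 1 library turned the sign of 8 of the 9 members, all but *Bst2*. In such fits the log2 fold change of *Irf7* was 1.57 without swap replicate 1 and 1.78 without control replicate 1. That of *Usp18* was 1.86 without control replicate 1. For *Ifit3* it was -3.85 without swap replicate 2 and -1.51 without control replicate 2. Each of these fits leaves 1 library in a group, so no call is read from them.

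That spread was seen in single cells too. Cells were counted in which at least 3 of the 8 members other than *Ifi27* had a UMI after thinning. In sustentacular cells these were 52 of 667 cells (7.80%, 95% exact interval 5.88 to 10.1%) in swap replicate 2 and 31 of 761 (4.07%, 2.78 to 5.73%) in control replicate 1. The shares were lower in swap replicate 1 (1.22%), control replicate 2 (1.08%), tetOP2 (1.31%) and gg8tTA (0 of 341 cells, which allows up to 0.880% by a floor of 3 counts and 1.08% as the exact upper limit). Before thinning the shares were 38.3% and 17.1% in swap replicate 2 and control replicate 1 and 4.99% to 11.9% in the other libraries.

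Neurons with several of these transcripts were found mainly in swap replicate 2. That library had 11 among 1005 thinned mature OSNs (1.09%, 0.548 to 1.95%). No such mature OSN was found among 749 cells of swap replicate 1, 1127 of control replicate 1, 672 of tetOP2 or 681 of gg8tTA, and 1 was found among 1256 of control replicate 2. A count of 0 of 749 cells allows a share of up to 0.401% by the floor, and the exact upper limit was 0.491%. Among immature OSNs there were 5 in 391 cells of swap replicate 2, 1 in 810 of swap replicate 1, 1 in 521 of gg8tTA and none in the 786 and 314 control cells or the 415 of tetOP2. The exact intervals of the swap replicates did not overlap in mature OSNs.

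**Figure D3:**
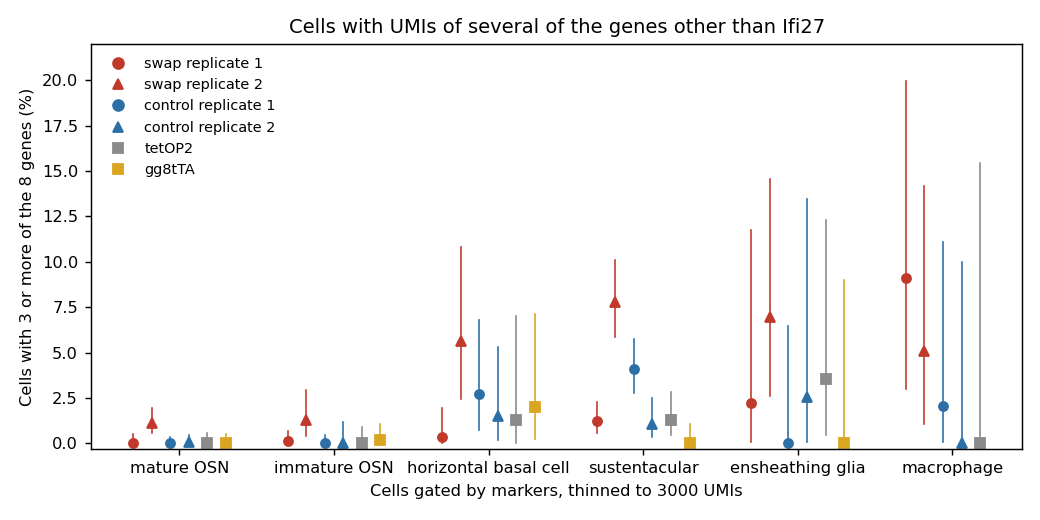
Percent of cells, thinned to 3000 UMIs, with a UMI of at least 3 of the 8 genes other than *Ifi27*, by gate and library, with exact Clopper-Pearson 95% intervals for counting error. Swap replicate 2 has 7.80% in sustentacular cells and 1.09% in mature OSNs, and control replicate 1 has 4.07% in sustentacular cells.

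Macrophages, which kept *Cbx1*, showed higher levels of several members in the swap libraries. *Isg15* was 170 and 81.6 CPM in swap replicates 1 and 2 against 34.2 and 41.3 CPM in the controls, and *Irf7* 111 and 57.6 against 19.2 and 5.50 CPM. Neither overlapped between the groups, and tetOP2 was at 18.8 and 12.5 CPM. The log2 fold change was 1.74 for *Isg15* (SE 0.45, edgeR adjusted p = 0.301) and 2.67 for *Irf7* (SE 0.57, adjusted p = 0.123). The sums were small, with 76 and 88 swap and 82 and 56 control cells, and in swap replicate 1 a single cell gave 56.3% of the *Isg15*, 83.3% of the *Ifit1* and 90.1% of the *Rsad2* UMIs. Without the filter on low counts edgeR called more genes in all, both *Isg15* (adjusted p = 0.0202) and *Irf7* (adjusted p = 0.00029) among them. With 1 library left out the log2 fold change was 1.14 to 2.19 for *Isg15* and 2.07 to 3.92 for *Irf7*.

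*Bst2* was 728 and 656 CPM in swap macrophages against 474 and 578 CPM in control macrophages (log2 fold change 0.42, SE 0.37, adjusted p = 1.00). *Ifi27* was 127 and 125 against 124 and 77.0 CPM. With the filter, 4 members were tested in macrophages and none was called, where 0.0869% of 5756 genes were called higher and 0.0521% lower. *Cxcl10*, a chemokine induced by interferons and 1 of the listed pathway genes, was called higher, at 199 and 322 CPM in swap against 23.5 and 55.0 CPM in control (log2 fold change 2.79, SE 0.47, adjusted p = 0.0237). The tetOP2 macrophages had 62.6 CPM of *Cxcl10*. The call was lost without control replicate 1 (adjusted p = 0.671), without control replicate 2 (0.0865), with the stricter gate (0.0780) and with tetOP2 and gg8tTA added to the controls (log2 fold change 1.48, adjusted p = 1.00). In the macrophage sums 5 monocyte markers stood at 282 to 305 CPM in swap and 107 to 206 CPM in control, and 5 sustentacular markers at 148 to 178 against 259 to 327 CPM, both without overlap. The part of these shifts in the differences of *Isg15*, *Irf7* and *Cxcl10* was not tested.

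*Bst2* was thus the member with the most regular difference between swap and control libraries. It had at least 10 UMIs over the 4 libraries in 11 gates, and in 8 of them both swap libraries were above both controls, in none below. Of the 4525 genes with as many such gates, 0.11% were higher in 8 gates or more. *Bst2* was picked as the member with the highest count, and this share does not allow for that choice. The 8 gates were mature OSNs, immature OSNs, sustentacular cells and microvillar cells, which had lost *Cbx1*, and ensheathing glia, fibroblasts, macrophages and B lineage cells, which had not. In fibroblasts *Bst2* was 40.3 and 125 CPM in swap against 33.3 and 38.9 CPM in control, and in ensheathing glia 78.6 and 50.4 against 32.4 and 38.5 CPM. The gates come from the same 4 libraries and are not separate replicates. Among the other members, gates higher in swap numbered 4 of 12 for *Isg15*, 2 of 10 for *Ifit1* and 3 of 7 for *Ifit3*. They numbered 5 of 11 for *Irf7*, 4 of 8 for *Oasl2* and 3 of 12 for *Rsad2*. For *Usp18* and *Ifi27* they numbered 5 of 11 and 2 of 12. *Ifit1*, *Rsad2* and *Usp18* were each lower in both swap than in both control libraries in 1 gate. The share of all genes with as many gates was not computed for these members, so their counts have no background beside them.

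**Figure D4:**
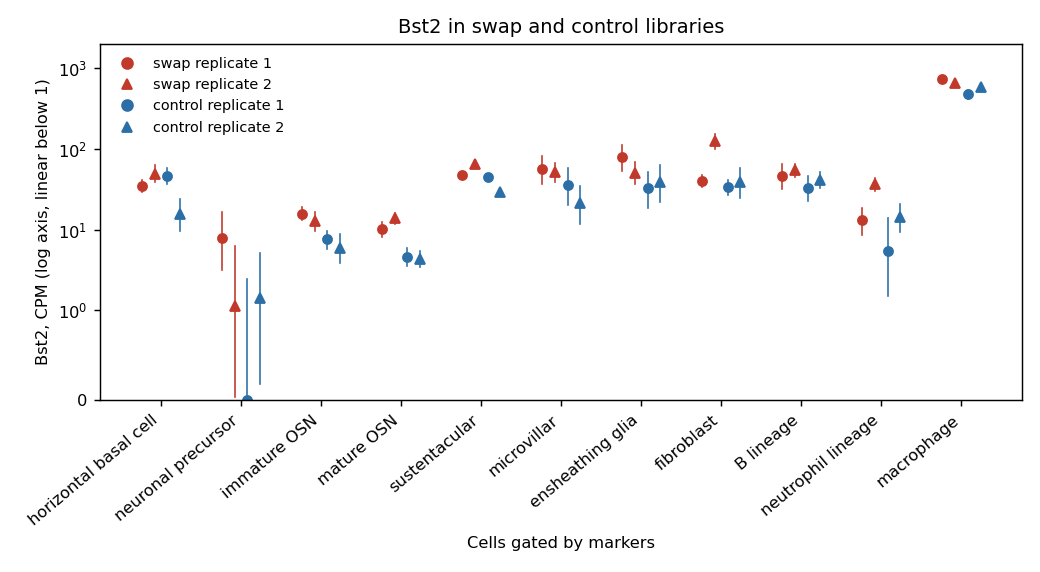
*Bst2* in CPM (log axis, linear below 1) in the 2 swap and 2 control libraries over 11 gates, with exact Poisson 95% intervals. The swap libraries lie above both controls in 8 gates, among them macrophages and fibroblasts, where *Cbx1* was kept.

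The share of mature OSNs with a *Bst2* UMI was small. It was 8.72% and 8.52% in swap against 4.80% and 4.36% in control before thinning, and 2.00% and 2.49% against 1.60% and 0.955% after. Neuronal precursors, the gate with the fewest *Bst2* UMIs among the neuronal ones, had thinned shares of 0% to 2.50% in 40 to 112 cells, at median depths of 11130 to 17420 UMIs against 11280 to 12650 UMIs in mature OSNs. The thinned shares of mature OSNs lay within that range, but it rests on 0 or 1 precursor cell with a UMI per library. So few cells cannot tell the mature OSN shares apart from background. The summed level of 6 macrophage markers in mature OSNs was 2.68 to 5.10 CPM in swap and 1.86 to 2.76 CPM in control, that of 5 monocyte markers 5.33 to 5.83 against 0.636 to 1.62 CPM, that of 5 plasmacytoid dendritic markers 0 and 2.36 against 0.494 and 0.420 CPM, that of 8 neutrophil lineage markers 43.9 to 70.0 against 33.9 to 49.7 CPM, and that of 6 endothelial markers 6.77 to 12.7 against 8.16 to 12.5 CPM. In sustentacular cells 8 neutrophil lineage markers summed to 1223 and 1736 CPM in swap and to 233 and 374 CPM in control. The 5 monocyte markers summed there to 7.09 to 87 CPM in swap and to 4.385 to 5.18 CPM in control. The part of RNA from other cells in these levels was not tested.

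*Ifi27* departed from the other members between OSNs with dorsal and OSNs with ventral marker transcripts. OSNs were called dorsal when they had UMIs of *Nqo1* or *Acsm4* and more of these than of ventral markers, and ventral when they had none of these and at least 2 UMIs of 5 ventral markers. Location in the tissue was not measured. The study proposes that ventral neurons of swap mice take on a dorsal transcriptional identity. In the swap libraries these gates may therefore mark identity and not location. In dorsal mature OSNs *Ifi27* stood at 22.9 and 10.8 CPM in swap replicates 1 and 2, 11.4 and 4.21 CPM in control replicates 1 and 2, 13.9 CPM in tetOP2 and 9.52 CPM in gg8tTA. In ventral mature OSNs it stood at 133 and 110, 138.5 and 50.8, 73.5 and 65.1 CPM in the same order. All 6 ventral sums were above all 6 dorsal sums, and within a library the ratio was 5.31 to 12.1. Ventral cells were 36.4% to 55.1% of the mature OSNs of a library, at median depths of 11450 to 13510 UMIs, and dorsal cells had 10790 to 11900. The log2 difference was 3.02 (SE 0.16, edgeR with the library as a block, adjusted p = 6.8e-07).

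Of the 9 members 6 passed the filter in this comparison, and *Ifi27* was the 1 member called, higher in ventral cells, where 5.03% of 12266 genes were called higher and 3.3% lower. It was called under each of 11 alternatives, with log2 differences between 2.89 and 3.56. After thinning, 10.9% to 26.2% of ventral and 1.11% to 6.44% of dorsal mature OSNs had an *Ifi27* UMI. Immature OSNs had the same order in each library, with 8.31 to 24.5 CPM in dorsal and 52.2 to 129 CPM in ventral cells and ratios of 3.65 to 11.02, a comparison without a test. Neuronal precursors, in which position was not gated, had 12.04 to 20.5 CPM, below the immature OSN sum of every library.

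*Ifit1* had a small difference in the other direction. Dorsal mature OSNs had 57.9, 58.3, 83.7, 92.4, 87.9 and 83.1 CPM and ventral mature OSNs 38.3, 60.8, 66.6, 76.6, 44.0 and 71.1 CPM, in the order swap, control, tetOP2 and gg8tTA. In 5 of the 6 libraries the ventral sum was lower, and swap replicate 2 was the exception. The log2 difference was -0.40 (SE 0.11, adjusted p = 0.0348), past the p threshold but not past the fold. *Bst2* had 12.4 and 6.48 CPM in dorsal and 8.93 and 19.4 CPM in ventral swap cells, against 4.87 and 4.76 and then 4.78 and 4.09 CPM in the controls (log2 difference 0.11, SE 0.30, adjusted p = 0.886). *Isg15*, *Irf7* and *Rsad2* were tested and not called, with log2 differences of 0.71, -0.01 and 0.34.

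**Figure D5:**
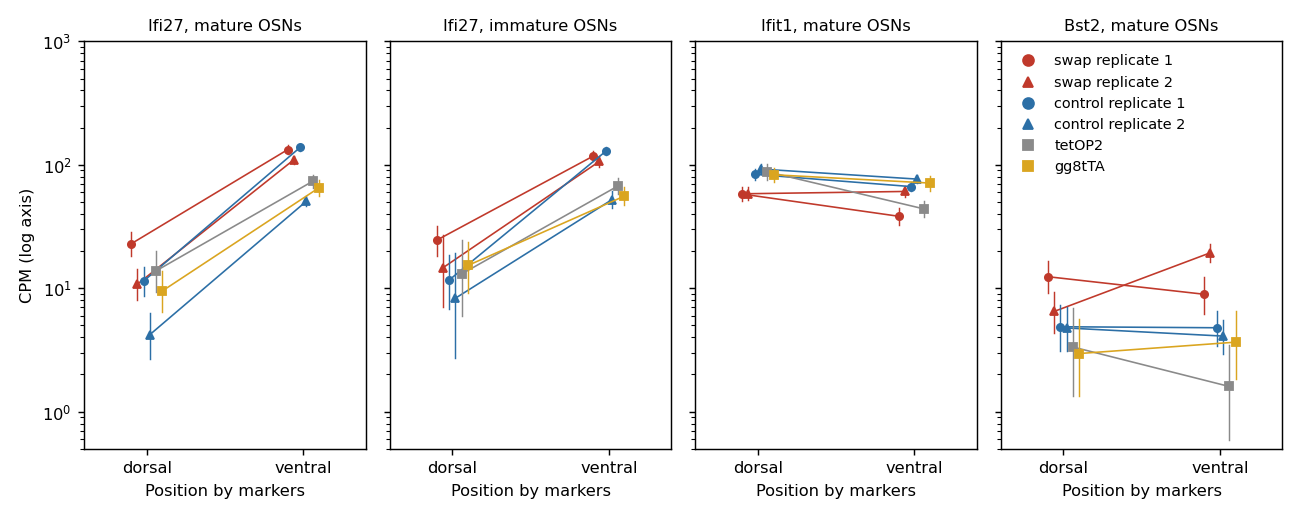
CPM (log axis) in dorsal and ventral OSNs of each library, joined by a line, for *Ifi27* in mature and immature OSNs and for *Ifit1* and *Bst2* in mature OSNs, with exact Poisson 95% intervals. Every *Ifi27* line rises towards ventral cells, by 5.31 to 12.1 times in mature OSNs, and 5 of 6 *Ifit1* lines fall.

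The dorsoventral difference of *Ifi27* was next compared between swap and control. Its ratio was 5.79 and 10.2 in swap replicates 1 and 2, 12.1 and 12.04 in control replicates 1 and 2, 5.31 in tetOP2 and 6.84 in gg8tTA. Both swap ratios were below both control ratios, but the tetOP2 and gg8tTA ratios lay in or below the swap range. The difference of the differences was -0.67 on the log2 scale (SE 0.27, edgeR adjusted p = 1.00). None of the 5 members tested was called, where 0.126% of 11910 genes were called higher and 0.0588% lower. Without control replicate 1 the value of *Rsad2* was 3.98.

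In the tetOP2 library the receptor of a neuron could be set beside its *Ifi27*. Ventral neurons whose most abundant receptor transcript was *Olfr17*, the driven receptor, had 81.2 CPM of *Ifi27* (196 cells, exact Poisson 95% interval 69.7 to 94.1), and ventral neurons with another receptor 64.3 CPM (128 cells, 52.3 to 78.3). Dorsal neurons had 16.1 CPM with *Olfr17* (102 cells, 9.57 to 25.5) and 11.8 CPM with another receptor (82 cells, 5.91 to 21.2). *Ifi27* was thus higher in ventral than in dorsal cells in both receptor classes of this 1 library.

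Control replicate 2 had lower *Ifi27* than control replicate 1 in 8 of the 9 gates with sums in all 6 libraries, all but neuronal precursors. In sustentacular cells the values were 132 and 337 CPM, in horizontal basal cells 105 and 334.5, in immature OSNs 42.3 and 106 and in mature OSNs 33.2 and 90.0. In ensheathing glia they were 595 and 663 CPM. The controls differ in genotype, and the part of genotype and of library in this difference cannot be told apart.

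Profiles over 14 gates, as log2(CPM + 1) averaged over libraries, were compared among 13104 other genes. Those most like *Ifi27* were *Ankrd13c*, *Cgrrf1*, *Cyth3*, *Acbd4* and *Abat*, with Pearson correlations of 0.8595, 0.851, 0.823, 0.788 and 0.7755. Those most like *Isg15* were *Igtp*, *Arrb1*, *Irgm2*, *Herc6* and *AW011738*, with correlations of 0.963, 0.938, 0.923, 0.921 and 0.92. *Igtp* and *Irgm2* encode interferon-induced GTPases. Between *Ifi27* and the other 8 members the correlation was 0.230 to 0.678, highest with *Isg15*. Among those 8 members it was -0.277 (*Bst2* with *Rsad2*) to 0.759 (*Isg15* with *Usp18*). The values of *Ifi27* lay within that range, so by this measure it did not stand apart from the other members. The gates share libraries and depth, and these values describe 14 points.

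The pathway around the members was followed with lists of 73 other genes in the files. Of 11 interferon genes, 10 had no UMI in mature OSNs of any library, and the receptor subunits *Ifnar1* and *Ifnar2* were present in all 6, at 19.4 to 33.7 and 46.6 to 63.4 CPM. Of 46 listed genes tested in mature OSNs, 38 in immature OSNs and 54 in sustentacular cells none was called in either direction, and of 43 in macrophages 1 was, *Cxcl10*. The median log2 fold change of the tested listed genes was 0.15, 0.27, 0.11 and 0.36 in these gates, against -0.02, -0.00376, -0.02 and 0.0020 over all genes. The median log2 fold change of the tested genes of antigen presentation was 1.08 in mature OSNs (6 genes), 0.76 in immature OSNs (3 genes), 0.80 in sustentacular cells (6 genes) and 0.19 in macrophages (6 genes), with none called. In mature OSNs the median was 0.83 for transcription factors (7 genes) and 0.13 for nucleic acid sensors (5 genes). It was 0.03 for other induced genes (17 genes) and -0.09 for receptors and kinases (9 genes). Lists with 1 gene tested stood at -7.07 (interferons) and -0.25 (family of *Ifi27*).

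*B2m*, the light chain of MHC class I, was 53.6 and 66.8 CPM in swap mature OSNs and 28.05 and 28.09 CPM in controls (log2 fold change 1.07, SE 0.22, edgeR adjusted p = 0.431, DESeq2 adjusted p = 0.00807), but 104 and 121.5 CPM in tetOP2 and gg8tTA. With those libraries among the controls its log2 fold change was -0.16. *Ifnk*, which encodes interferon kappa, had 0 and 0 UMIs in swap mature OSNs against 17 and 22 in controls, 6 in tetOP2 and 0 in gg8tTA. In sustentacular cells it had 0 and 4 against 17 and 20 UMIs (adjusted p = 1.00). *B2m* and *Ifnk* were chosen after their values were seen, and *Ifnk* overlaps *Mob3b* on the opposite strand. Between ventral and dorsal mature OSNs 38 listed genes were tested and 2 were called, where 5.03% of 12266 genes were called higher and 3.3% lower. This count is near the share of all genes. The 2 genes, both higher in ventral cells, were *Eif2ak2*, the kinase PKR (log2 difference 0.67, edgeR adjusted p = 0.0256), and *Lgals3bp*, a secreted glycoprotein (0.79, adjusted p = 0.0313). Either call was lost without 1 of several libraries, *Eif2ak2* without swap replicate 2 or either control and *Lgals3bp* without swap replicate 1 or 2 or control replicate 1 (adjusted p 0.0689 to 0.108 over these fits). *Eif2ak2* was also not called by DESeq2 (adjusted p = 0.0766), nor *Lgals3bp* in the 2 control libraries alone (adjusted p = 0.175). *Ifit2*, another *Ifit* gene, was at 19.6 to 34.6 CPM in mature OSNs. It was lower in ventral cells by 0.44 (SE 0.09, edgeR adjusted p = 0.00508), which did not pass the fold threshold.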

How the data were processed

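The authors deposited UMI counts per gene and cell for 6 10X Genomics libraries, made from reads mapped to mm10 per the labels, with no normalization. Depth was 32005196 to 63277934 counts per library, which sets counting intervals, and intervals and floors cover counting error only. The 9 genes, the other gene lists and the tests were chosen with earlier results of these data known. Barcodes below 1000 UMIs or 500 detected genes were removed and the others assigned to 17 types by marker gates, each needing 3 or more detected markers and 0.2% of UMIs from them (2% for neutrophil and erythroid cells). Counts were summed per library and gate where at least 20 cells were present, and sums were tested, not cells. Doublets were kept in the main values and dropped in an alternative. Shares of cells were compared after each cell was thinned to 3000 UMIs, with shallower cells left out.

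Tests used the quasi-likelihood test of edgeR 4.0.16 in R 4.3.3 with TMM scaling and a filter on low counts, and p-values were adjusted by Benjamini-Hochberg over all genes tested. Swap against control used 2 against 2 libraries. Comparisons of gates and of positions within a library had the library as a block. No label gives the source of the replicates, and p-values measure the spread between these libraries. Alternatives were DESeq2 1.42.0, its size factors, no filter, deeper cells, a stricter gate, a block by replicate number, the gg8-tTA libraries as further controls and leaving out each library. On simulated counts with 200 changed genes, 187 of 200 were recovered for mature OSNs, with 37 of 50 at 2-fold. For macrophages 178 were recovered, with 29 of 50 at 2-fold. The simulation gave all genes the same fixed spread between libraries, which was not taken from these data. Only genes above a minimum mean count were changed. These recovered shares therefore do not tell how often a change in a member would be called. Other computation used Python 3.11.15, numpy 2.4.6, scipy 1.17.1 and scikit-learn 1.9.0. In the text, genes named are the 9 members, those fixed in the pathway lists that passed a test, the closest profiles by rank, and those stated to be chosen after their values were seen. *Ifnar1*, *Ifnar2* and *Ifit2* are in the pathway lists and were named without a call. Genes used as checks, as markers or for an overlap are named as well. Counting included introns per the study's methods, so reads of *Irf7*, *Usp18* and *Ifnk* cannot be told apart from an overlapping gene where strand was not used. Part of the genotype labels is not reported here.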

Additional observations from a re-analysis of the deposited data

Results flagged for a closer look

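*Ifit1* had swap to control differences of opposite sign in neurons of different age. In mature OSNs the ratio of the means was 0.6911, with 48.2 and 60.5 CPM in swap and 74.8 and 82.4 CPM in control. In immature OSNs it was 2.436, with 3.12 and 7.85 CPM in swap and 3.08 and 1.43 CPM in control. Every swap library lay on 1 side of both controls in mature OSNs and on the other side in immature OSNs. The difference between the 2 gates was not tested, and the counts behind the immature OSN values were 25, 35, 26 and 6 UMIs.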

How the results depend on the processing

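Over all alternatives 463 single-gene values kept their direction and their side of the threshold, 44 changed sign, 19 were newly called and 13 lost a call. *Bst2* kept its sign in mature OSNs, immature OSNs, sustentacular cells and macrophages under every alternative run, and *Ifi27* stayed called between ventral and dorsal mature OSNs. Counts of called genes depended more on the settings, and fits with 3 libraries assume that the lone sample of a group varies like the others. In mature OSNs 0 genes were called by edgeR, 2 with the size factors of DESeq2, 3 with no filter, 190 with DESeq2 itself, 2 with cells of at least 3000 UMIs, 2 without doublets, 10 with the gg8-tTA libraries added, and 227 to 258 with 1 library left out. In immature OSNs the 0 became 61 with no filter, 84 with DESeq2, 4 without doublets, 21 with the stricter gate, 1 with the gg8-tTA libraries and 95 to 172 with 1 left out. In sustentacular cells the 2 became 1 with the other size factors, 0 with no filter, 32 with DESeq2, 12 with the stricter gate, 5 with the gg8-tTA libraries and 108 to 177 with 1 left out. In macrophages the 8 became 86, 13, 2 and 3 with no filter, without doublets, with the stricter gate and with the gg8-tTA libraries, and 1 to 46 with 1 left out. The causes were not tested. DESeq2 called 515 genes between ventral and dorsal cells in place of 1022, and 5 in the swap minus control difference in place of 22, where no filter gave 36 and leaving out 1 library 49 to 84.

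The replicate numbers were also used as a block, although no label pairs the samples. Same-numbered samples deviated together, with correlations over genes of 0.595, 0.577, 0.463 and 0.313 in mature OSNs, immature OSNs, sustentacular cells and macrophages, a hint from 2 pairs. With the block 0, 75, 12 and 63 genes were called in these gates, 2 of the 63 being members, *Isg15* (adjusted p = 0.00089) and *Irf7*. *Rsad2* in mature OSNs became -0.066 with the block and *Ifit1* in sustentacular cells -0.10.

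Other changes of sign were in members without a call. *Rsad2* in mature OSNs was -0.00225 with deeper cells and -0.51 with the stricter gate. With the gg8-tTA libraries added it was 0.078 in immature OSNs and 0.55 in sustentacular cells, *Ifit3* was 0.038 in sustentacular cells and *B2m* was -0.16 in mature OSNs. Between ventral and dorsal cells *Irf7* was 0.044 with the stricter position gate, and in the 2 control libraries alone *Isg15* was -0.25, *Bst2* -0.15 and *Rsad2* -0.83. With 1 library left out, log2 fold changes ranged in mature OSNs from -0.91 to 3.38 for *Isg15*, -0.73 to 0.50 for *Rsad2* and -0.38 to 1.16 for *Ifi27*, and in immature OSNs from -0.96 to 0.41 for *Rsad2* and -0.49 to 0.94 for *Ifi27*. In sustentacular cells they ranged from -0.91 to 1.29 for *Isg15*, -1.22 to 0.87 for *Ifit1*, -3.85 to 0.47 for *Ifit3*, -0.28 to 1.78 for *Irf7*, -0.39 to 1.51 for *Oasl2*, -1.09 to 0.51 for *Rsad2*, -0.44 to 1.86 for *Usp18* and -0.79 to 0.68 for *Ifi27*, and in macrophages from -0.020 to 0.76 for *Ifi27*. The ventral to dorsal difference ranged from -0.72 to 0.41 for *Irf7*, -0.29 to 0.28 for *Bst2* and -0.13 to 1.19 for *Rsad2*, and its difference between swap and control from -1.78 to 4.21 for *Isg15*, -0.30 to 0.38 for *Ifit1* and -0.35 to 1.72 for *Bst2*. The swap minus control difference in the share of mature OSNs with a UMI was -6.40 percentage points thinned and -13.2 unthinned for *Ifit1*, and 0.969 and 4.04 for *Bst2*.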

Other observations

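*Trim30a*, an interferon-induced gene of the pathway lists, stood apart in 1 library. In mature OSNs it had 260 UMIs (18.4 CPM) in control replicate 1, against 5 and 4 UMIs in the swap libraries, 2 in control replicate 2 and 0 in tetOP2 and gg8tTA. It was chosen after its values were seen. *Cxcl10* in gg8tTA macrophages, 17 cells and so below the minimum for a comparison, was at 280 CPM, between the swap values of 199 and 322 CPM. *Rsad2* in erythroid cells was at 3501 and 2056 CPM in swap replicates 1 and 2 and 3798 and 2608 CPM in control replicates 1 and 2. Swap replicate 1 lay between the controls and swap replicate 2 below both. The same cells had 11.6 to 143 CPM of *Ifit1*.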
